A study of Mus musculus with 7 samples.

Results

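Myosin light chains and the kinases that phosphorylate them were followed in the ventricles of mice with a narrowed aorta. The group comprised 10 genes, taken from the table by symbol with no threshold on measured values, although the set was proposed with earlier results of these data known: Myl1, Myl2, Myl3, Myl4, Myl6, Myl7, Myl9 and Myl12a, which encode light chains, and the kinase genes Mylk and Mylk3. Each symbol occurred in 1 row among the 23847 rows of the deposited expression table. The TAB group consisted of 3 libraries from male mice that had undergone trans-aortic banding, in which a tied suture constricts the aorta and loads the left ventricle. The Sham group consisted of 4 libraries from male mice whose aorta was exposed without ligation. The surgical protocol puts the operation at 8 weeks of age, and both groups carry an age label of 12 weeks. RNA came from ventricular lysate in both groups, so all cell types of the tissue were measured together. No strain, genotype or duration of banding was given in the sources used here. Because no label assigns a library to an animal of its own, the p-values speak only of variation among the libraries.

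A myosin motor consists of heavy chains whose lever arm is wrapped by an essential and a regulatory light chain. The heart uses a ventricular pair (Myl3 essential, Myl2 regulatory) and an atrial pair (Myl4 essential, Myl7 regulatory), and the atrial pair is also present in the ventricle before birth. Smooth muscle and non-muscle cells use Myl6 as the essential chain and Myl9, Myl12a or Myl12b as the regulatory chain, while Myl1 is the essential chain of fast skeletal muscle. Dedicated kinases phosphorylate a serine near the start of the regulatory chain. Mylk is the kinase of smooth muscle and non-muscle cells, and Mylk3 is the cardiac one. Phosphorylation of the cardiac chain raises the force of contraction, and phosphorylation of the smooth muscle chain switches contraction on.

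The kinase target is the feature that sets the regulatory chains apart from the essential ones, so the coding bases around it are shown for the 4 regulatory members and for the close paralog Myl12b. Each sequence is 63 bases of the GENCODE M21 transcript on GRCm38, read 5′ to 3′ on the coding strand. Capitals mark the codon of the serine that precedes the codons for asparagine, valine and phenylalanine. It lies in exon 2 of each gene, at codon 15 in Myl2, 23 in Myl7 and 20 in Myl9, Myl12a and Myl12b, where the start codon is 1.
Myl2 (plus strand, codon at chr5:122101788-122101790): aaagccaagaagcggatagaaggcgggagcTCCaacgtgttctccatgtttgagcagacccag
Myl7 (minus strand, codon at chr11:5898474-5898476): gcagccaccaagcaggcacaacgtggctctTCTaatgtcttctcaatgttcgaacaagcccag
Myl9 (plus strand, codon at chr2:156778602-156778604): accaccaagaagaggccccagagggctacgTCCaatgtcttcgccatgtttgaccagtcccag
Myl12a (minus strand, codon at chr17:70996821-70996823): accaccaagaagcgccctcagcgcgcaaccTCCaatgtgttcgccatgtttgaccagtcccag
Myl12b (minus strand, codon at chr17:70977172-70977174): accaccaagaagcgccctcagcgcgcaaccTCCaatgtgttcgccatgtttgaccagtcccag
The stretches of Myl12a and Myl12b had 0 differences, those of Myl9 and Myl12a had 8, and those of Myl2 and Myl7 had 22. Over the whole coding sequence the ventricular and atrial regulatory chains Myl2 and Myl7 were 61.7% identical and the essential chains Myl3 and Myl4 72.9%. Their longest shared runs were 16 and 29 bases. Myl12a and Myl12b were 96.5% identical and their transcripts shared a run of 120 bases. Fragments from such a run cannot be assigned to one gene, so the levels of these 2 genes are less certain than those of the other members. A search of the translated coding sequences for the same 4 amino acids in a row found no match in the essential chains Myl1, Myl3, Myl4 and Myl6.

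Levels are FPKM, fragments per kilobase of transcript scaled to the mapped fragments of the library, and were not recomputed from reads. The low values implied a depth of 11 to 12.3 M (mega) fragments per library. At that depth the members rested on at least 107 fragments in each library, a minimum set by Myl7 and estimated from the length of 1 transcript per gene. In the ventricular tissue Myl2 was the most abundant of all rows by mean FPKM and Myl3 ranked 6. Other cardiomyocyte genes were present in each library. Irx4, a ventricular transcription factor gene, had 9.87 to 11.6 FPKM in TAB and 8.83 to 10.8 FPKM in Sham. Of 6 listed cardiomyocyte genes, 0 were higher, 3 lower and 3 not called, and their median log2 difference was -0.15. Tnni3, Tnnt2, Actc1 and Ryr2 on this list are expressed in atria as well and do not mark the ventricle. The ventricular genes Irx4 and Hey2 were not called (0.14 ± 0.08 and -0.15 ± 0.08 SE, limma adjusted p = 0.238 and 0.216). The 3 that fell were Tnni3 and Tnnt2, troponin subunits of the thin filament, and Ryr2, the calcium release channel, by 0.24 ± 0.05, 0.16 ± 0.04 and 0.36 ± 0.06 SE on the log2 scale (limma adjusted p = 0.0051, 0.0265 and 0.00241). Tnnt2 lost its call in 7 of 17 alternative fits, with adjusted p up to 0.432 under quantile normalization.

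In order of mean FPKM over the 7 libraries the members ran Myl2, Myl3, Myl12a, Myl6, Mylk3, Myl7, Myl1, Myl4, Myl9 and Mylk. Myl2, Myl3 and Mylk stood clear of their neighbours in each library. The ranges of Myl12a and Myl6 overlapped over all libraries, as did those of Myl6 and Mylk3. Within each single library, however, Myl12a was above Myl6, and Myl6 was above Mylk3 in each library but Sham 1. Myl7, Myl1, Myl4 and Myl9 overlapped with one another, so their order is not firm.

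Differences between groups were tested with limma on log2(FPKM + 1), adjusted by Benjamini-Hochberg over 11601 rows, and a gene is called when its adjusted p is below 0.05. All 10 members passed the filter on low values. Of the 10, 3 were higher in TAB (Myl12a, Myl9 and Myl6), 1 was lower (Mylk3) and 6 were not called. Among all tested rows 20.3% were called, 13.3% as higher and 7.05% as lower. The split of all calls, 1542 higher and 818 lower, turned to 1038 and 1250 under median-of-ratios rescaling, which left the 10 members' calls as they were. The median log2 fold change was 0.08 over the 10 members and 0.05 over all tested rows. The TAB and Sham libraries did not overlap in 5 of the members, against 31.1% of all tested rows. Of the 5, 4 were higher in TAB, against 19.9% of all tested rows, and 1 was lower, against 11.2%. With 10 genes chosen for their function, these counts describe the group and no test was made of them. Log2 fold changes below are TAB minus Sham of FPKM + 1, given with their standard error (SE), and intervals are 95% intervals of the same fit.

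**Figure D1:**
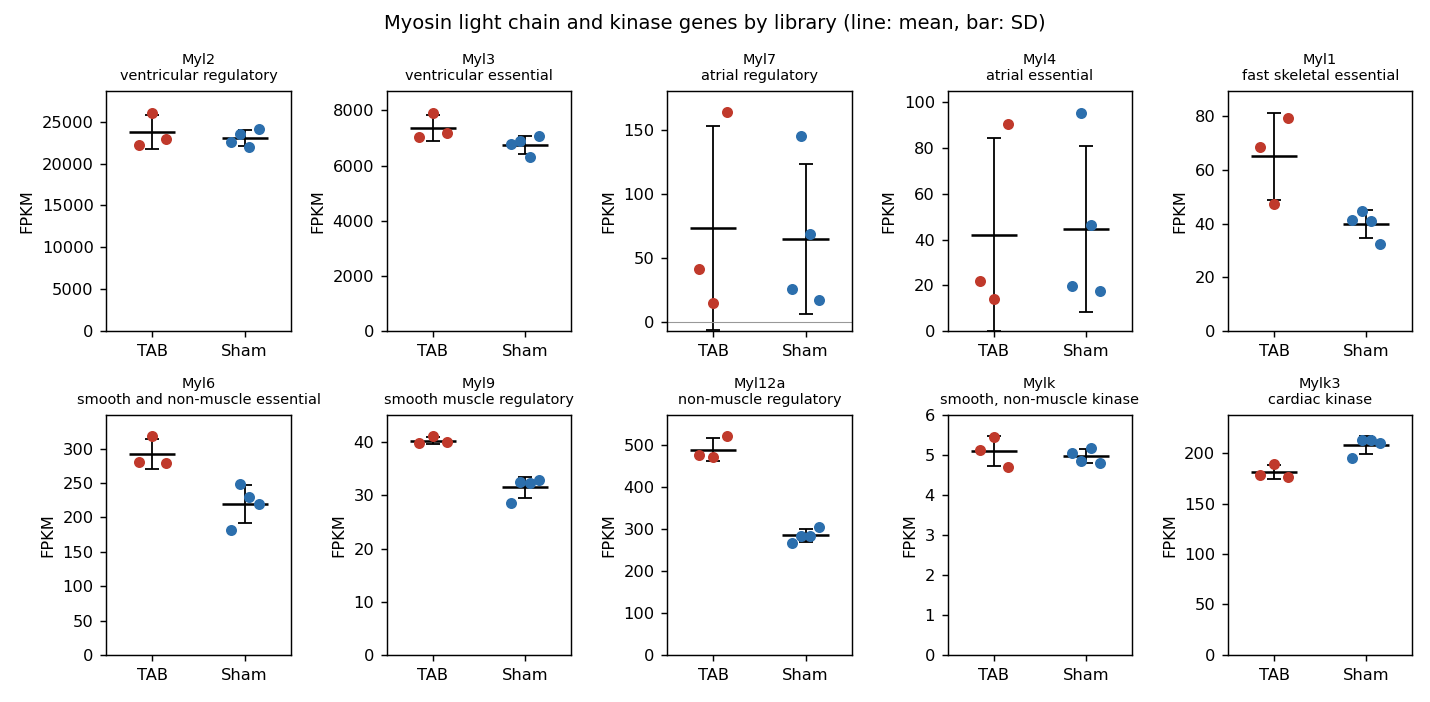
FPKM (vertical axes) of the 10 genes in each TAB (red) and Sham (blue) library; horizontal lines are group means and vertical bars SD (n = 3 and n = 4). Myl12a, Myl9, Myl6 and Myl1 lie higher and Mylk3 lower in each TAB library than in any Sham library, and Myl7 and Myl4 spread widely in both groups.

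The ventricular chains dominated and differed little between the groups. Myl2, on the plus strand at chr5:122100980-122106854 (mm10, as for all gene positions given here), had 22240, 26061 and 22914 FPKM in TAB 1 to 3. In Sham 1 to 4 it had 22613, 23503, 22000 and 24147 FPKM. The groups overlapped, with TAB 2 the highest library and Sham 3 the lowest. Its log2 fold change was 0.04 ± 0.06 SE (limma adjusted p = 0.672), with an interval from -0.08 to 0.16. Myl2 made up 4.51% ± 0.316 (SD, n = 3) of all FPKM in TAB and 4.45% ± 0.119 (SD, n = 4) in Sham.

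Myl3, which holds the ventricular lever arm together with Myl2, lies on the plus strand at chr9:110763681-110769794. It had 7029, 7914 and 7189 FPKM in TAB and 6787, 6892, 6304 and 7056 FPKM in Sham 1 to 4. TAB 1 lay just below Sham 4, so the groups overlapped. The log2 fold change was 0.13 ± 0.05 SE (limma adjusted p = 0.113), with an unadjusted interval from 0.01 to 0.24 that leaves out 0. As a share of all FPKM, Myl3 did not overlap between the groups. It made up 1.352% to 1.478% in TAB and 1.236% to 1.345% in Sham. Quantile normalization put this gene past the threshold (0.18, adjusted p = 0.0172).

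Within libraries the balance of the ventricular pair differed slightly between the groups. The ratio of Myl2 to Myl3 FPKM was 3.16, 3.29 and 3.19 in TAB 1 to 3 and 3.33, 3.41, 3.49 and 3.42 in Sham 1 to 4, so it was lower in each TAB library than in any Sham library. Their heavy chain partners moved in opposite directions. Myh6, the fast adult cardiac heavy chain, had 4612 to 4910 FPKM in TAB and 5473 to 6067 FPKM in Sham (log2 fold change -0.26 ± 0.04 SE, limma adjusted p = 0.0023). Myh7, the slow heavy chain of the fetal mouse ventricle, had 239 to 541 FPKM in TAB and 62.2 to 80.9 FPKM in Sham (2.26 ± 0.31 SE, limma adjusted p = 0.00675). Per unit of the summed Myh6 and Myh7 FPKM there was 4.55, 5.06 and 4.25 Myl2 FPKM in TAB. In Sham it was 3.95, 4.24, 3.76 and 3.93, and the closest values of the groups, TAB 3 and Sham 2, were nearly equal. These ratios were chosen after the values were seen and were not tested.

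**Figure D2:**
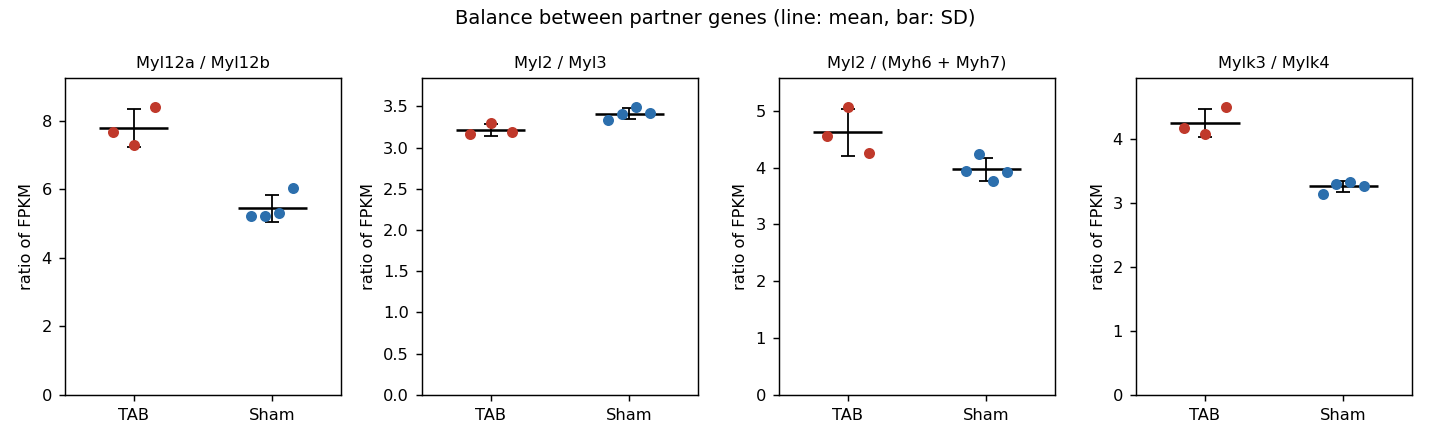
Ratios of FPKM between partner genes in each TAB (red) and Sham (blue) library, with group means (lines) and SD (bars, n = 3 and n = 4). Myl12a to Myl12b, Myl2 to summed Myh6 and Myh7, and Mylk3 to Mylk4 are higher in each TAB library than in any Sham library, and Myl2 to Myl3 is lower.

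The atrial chains were a minor component whose level depended on the library far more than on the group. Myl7, the atrial regulatory chain (minus strand, chr11:5896637-5898782), had 41.8, 14.9 and 164 FPKM in TAB 1 to 3. In Sham 1 to 4 it had 26.5, 146, 69.2 and 17.6 FPKM. The highest library was 11.1 times the lowest within TAB and 8.28 times within Sham. The log2 fold change was 0.01 ± 1.13 SE (limma adjusted p = 0.997), with an interval from -2.86 to 2.88 that includes large changes in either direction.

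Myl4, the atrial essential chain (plus strand, chr11:104550663-104587219), had 22.1, 13.9 and 90.6 FPKM in TAB 1 to 3 and 19.6, 95.4, 46.6 and 17.6 FPKM in Sham 1 to 4. It followed the order of Myl7 apart from the top pair, with TAB 3, Sham 2 and Sham 3 high and TAB 2 and Sham 4 low. Its log2 fold change was -0.21 ± 0.92 SE (limma adjusted p = 0.907), with an interval from -2.55 to 2.14. The direction of both atrial chains changed when single libraries were left out. Without TAB 3 the log2 fold change of Myl7 was -0.88 (adjusted p = 0.662), and without Sham 2 that of Myl4 was 0.26 (adjusted p = 0.878). No rise or fall of the atrial chains could therefore be read from these libraries.

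Myl7 made up 0.188%, 0.0571% and 0.713% of the summed Myl2 and Myl7 FPKM in TAB and 0.117%, 0.618%, 0.314% and 0.073% in Sham. Myl4 made up 0.313%, 0.175% and 1.245% of the summed Myl3 and Myl4 FPKM in TAB and 0.288%, 1.37%, 0.733% and 0.249% in Sham. The groups overlapped in both shares.

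Among 7166 other tested genes with a mean of at least 5 FPKM, Sln was nearest to Myl7 across the 7 libraries, with a root mean square difference of 0.089 between their centred log2 profiles. Sln encodes sarcolipin, an inhibitor of the calcium pump that is found in mouse atria and hardly in mouse ventricle. It had 9.83, 3.09 and 46.7 FPKM in TAB and 6.22, 40.1, 17.6 and 3.38 FPKM in Sham (log2 fold change 0.04 ± 1.19 SE, limma adjusted p = 0.987). Its libraries fell in exactly the order of Myl7. The next gene was Myl4 (0.320), and the third, Serpina3n, was far less alike (1.05). For Myl4 the nearest genes were Myl7, Sln (0.383) and Serpina3n (0.871).

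Other atrial markers did not all follow. Of the 9 on the list, which leaves out Myl4 and Myl7, 6 were tested: 1 was higher, 2 were lower and 3 were not called, and the median log2 difference was -0.04. Their summed FPKM, which is mostly Nppa, was 1000 to 2316 in TAB and 264 to 616 in Sham. Nppa, which encodes a natriuretic peptide that loaded ventricles also make, had 947, 917 and 2187 FPKM in TAB and 221, 457, 140 and 186 FPKM in Sham (2.45 ± 0.54 SE, limma adjusted p = 0.0339). Its highest TAB library was TAB 3 and its highest Sham library was Sham 2, the libraries rich in Myl7. Leaving out any single library other than Sham 2 ended the call of Nppa, with adjusted p between 0.0651 and 0.0868. The potassium channel genes Kcnj3 and Kcnk3, at 11.6 FPKM or more in each library, were the 2 that fell (-0.91 ± 0.10 and -0.31 ± 0.05 SE, limma adjusted p = 0.00044 and 0.0017). Bmp10, an atrial growth factor gene that did not pass the filter, was listed at 0 in 5 libraries and at 0.756 and 3.22 FPKM in TAB 3 and Sham 2. Dkk3 was highest in TAB 3 and Sham 2 of their groups (7.62 and 5.84 FPKM), and Gja5 in TAB 1 and Sham 2 (2.73 and 3.04 FPKM). Nr2f1 and Cacna1d, also below the filter, were highest of TAB in TAB 3 (0.765 and 0.510 FPKM). Both were lowest of Sham in Sham 2 (0.520 and 0.339 FPKM). The part that the amount of atrial tissue in each sample had in these values was not tested.

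**Figure D3:**
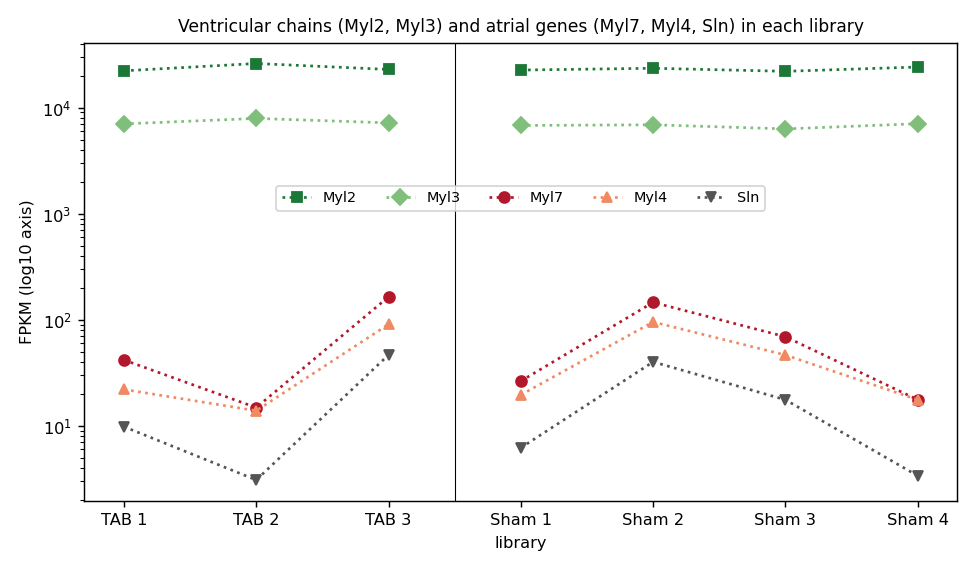
FPKM on a log10 axis of Myl2, Myl3, Myl7, Myl4 and Sln in each TAB library (left) and Sham library (right); dotted lines join the values of a gene within a group. Myl7, Myl4 and Sln vary alike across libraries, highest in TAB 3 and Sham 2, while Myl2 and Myl3 stay within 1.17 times of their lowest value in TAB and 1.12 times in Sham.

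The light chains of smooth muscle and non-muscle cells were the members that rose. Myl12a, a regulatory chain found in most cell types (minus strand, chr17:70993793-71002533), had 475, 471 and 520 FPKM in TAB 1 to 3. In Sham 1 to 4 it had 268, 282, 284 and 304 FPKM. The lowest TAB library stood well above the highest Sham library. The mean was 489 ± 27.0 FPKM (SD, n = 3) in TAB and 284 ± 14.9 FPKM (SD, n = 4) in Sham, or 1.72 times as much in TAB (0.78 ± 0.05 SE on the log2 scale, limma adjusted p = 3.15e-05). This was the largest change among the called members and kept its call in each alternative fit, with log2 values from 0.72 to 0.81.

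Its neighbour and near copy Myl12b, whose table interval ends 3276 bases from that of Myl12a on the same strand, also rose. Myl12b had 62.0, 64.7 and 62.0 FPKM in TAB and 51.2, 54.2, 53.5 and 50.5 FPKM in Sham 1 to 4, without overlap. The log2 fold change was 0.26 ± 0.04 SE (limma adjusted p = 0.00279). The ratio of Myl12a to Myl12b was 7.66, 7.29 and 8.39 in TAB and 5.23, 5.20, 5.31 and 6.02 in Sham. Fragments from their shared bases could have been given to either gene, and GENCODE also places a gene model named Myl12b across part of Myl12a.

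Myl6, the essential chain that pairs with these regulatory chains (minus strand, chr10:128490861-128493825), had 280, 318 and 279 FPKM in TAB 1 to 3 and 182, 248, 229 and 219 FPKM in Sham 1 to 4. The groups did not overlap, and Sham 1 was the lowest library. The log2 fold change was 0.42 ± 0.10 SE (limma adjusted p = 0.0178). Without TAB 2, the highest library, its call was lost (adjusted p = 0.0606). Myl6b, the other essential chain gene of this kind, lies 331 bases away and stayed at 1.43 to 2.12 FPKM in TAB and 1.41 to 2.15 FPKM in Sham (-0.07 ± 0.12 SE, limma adjusted p = 0.718).

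Myl9, the regulatory chain of smooth muscle (plus strand, chr2:156775464-156781657), had 39.8, 41.1 and 40.0 FPKM in TAB 1 to 3. In Sham 1 to 4 it had 28.5, 32.5, 32.3 and 32.9 FPKM. The TAB libraries lay close together and above every Sham library, of which Sham 1 was set apart below the other three. The log2 fold change was 0.35 ± 0.06 SE (limma adjusted p = 0.00213), and the call held in each alternative fit.

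Together Myl6, Myl9 and Myl12a made up 2.57% ± 0.162 (SD, n = 3) of the FPKM of the 8 light chain genes in TAB and 1.76% ± 0.120 (SD, n = 4) in Sham. Myl2 and Myl3 held at least 96.2% in each library. The 8 genes together were 6.10% ± 0.369 (SD, n = 3) of all FPKM in TAB and 5.89% ± 0.157 (SD, n = 4) in Sham.

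Heavy chains of the same cells showed the same direction in part. The non-muscle heavy chains Myh9 and Myh10 rose by 0.32 ± 0.07 and 0.42 ± 0.08 SE on the log2 scale (limma adjusted p = 0.0106 and 0.00659), and the call of Myh9 was lost without TAB 1 (adjusted p = 0.0522). Myh9 had 27.1 to 31.2 FPKM in TAB and 20.5 to 24.6 FPKM in Sham, and Myh10 had 7.99 to 10.7 FPKM in TAB and 6.64 to 6.99 FPKM in Sham. The third non-muscle heavy chain, Myh14, had 17.3 to 17.5 FPKM in TAB and 18.5 to 21.5 FPKM in Sham (-0.14 ± 0.06 SE, limma adjusted p = 0.127). Myh11, the smooth muscle heavy chain, had 11.9, 13.1 and 12.2 FPKM in TAB and 9.499, 9.75, 12.0 and 10.6 FPKM in Sham (0.23 ± 0.08 SE, limma adjusted p = 0.0643). It passed the threshold without Sham 3 (adjusted p = 0.018). Of the 12 listed heavy chain genes 7 were tested, with 3 higher, 1 lower and 3 not called. The 5 skeletal and developmental genes, Myh1, Myh2, Myh3, Myh4 and Myh8, were at most 0.606 FPKM.

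Of 9 smooth muscle markers other than Myl9 and Mylk, 4 were higher, 0 lower and 5 not called. Their median log2 difference was 0.23. The 4 were Tpm2, a tropomyosin (1.06 ± 0.08 SE), Cnn1, calponin (0.66 ± 0.10 SE), Actg2, an actin of visceral smooth muscle (0.65 ± 0.12 SE), and Tagln, transgelin (0.57 ± 0.08 SE), with limma adjusted p from 5.19e-05 to 0.00378. Of the 5 not called, Myh11 is given above and Acta2 lay above 0 (0.16 ± 0.06 SE, limma adjusted p = 0.105). Smtn, Synpo2 and Lmod1 lay slightly below 0 (-0.09 ± 0.07, -0.08 ± 0.08 and -0.01 ± 0.09 SE, limma adjusted p = 0.418, 0.496 and 0.972). Summed FPKM over the 9 genes was 169 to 182 in TAB and 141 to 154 in Sham, and no marker was at 0. A larger share of these cells and more RNA per cell cannot be told apart in whole ventricular tissue, here or for any member. The part of such cells in the values of Myl6, Myl9 and Myl12a was not tested.

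Myl1, the essential chain of fast skeletal muscle (minus strand, chr1:66924296-66945056), was present in these ventricles at a mean level between those of Myl4 and Myl7 over the 7 libraries. It had 68.5, 47.5 and 79.4 FPKM in TAB 1 to 3 and 41.5, 44.7, 40.9 and 32.5 FPKM in Sham 1 to 4. The groups did not overlap, but TAB 2 stood only just above Sham 2. The log2 fold change was 0.67 ± 0.19 SE and missed the threshold (limma adjusted p = 0.0531), with an unadjusted interval from 0.21 to 1.13. It passed without TAB 2 (0.88, adjusted p = 0.00241), with log2 Sln as a covariate (0.66, adjusted p = 0.0017), without a filter (adjusted p = 0.0401) and without trend and robust in eBayes (adjusted p = 0.0287). In the other 13 of 17 alternative fits Myl1 was not called, with adjusted p up to 0.159.

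Listed markers of fast skeletal muscle, Mybpc2 apart, had at most 3.49 FPKM in any of the same libraries. That value was of Tnni2, a fast troponin subunit, which had 1.31 to 2.55 FPKM in TAB and 2.21 to 3.49 FPKM in Sham. Atp2a1 had at most 0.766 FPKM. Mybpc1, also on the list, encodes the slow isoform of myosin-binding protein C and does not mark fast fibres. It had at most 0.0628 FPKM. The heavy chains Myh1, Myh2 and Myh4 had at most 0.606 FPKM, and Actn3, an actinin of fast fibres, at most 0.231 FPKM. The highest values of Tnnt3 (3.06 FPKM), Tnnc2 (2.41 FPKM) and Pvalb (1.72 FPKM) were those of Sham 4, the library with the least Myl1. Of the 11 markers 3 were tested, with 1 higher, 0 lower and 2 not called. The 2 were Tnni2 (-0.27 ± 0.16 SE, limma adjusted p = 0.271) and Pvalb (-0.51 ± 0.21 SE, limma adjusted p = 0.117). The marker that rose was Mybpc2, the fast isoform of myosin-binding protein C (1.58 ± 0.12 SE, limma adjusted p = 0.000109), and the other 10 summed to 1.94 to 4.34 FPKM in TAB and 3.29 to 12.5 FPKM in Sham.

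Of the kinase genes, Mylk3 fell and Mylk was not called. Mylk3, the cardiac light chain kinase (minus strand, chr8:85324929-85365324), had 179, 189 and 176 FPKM in TAB 1 to 3. In Sham 1 to 4 it had 195, 213, 213 and 210 FPKM. Each TAB library was below each Sham library, of which Sham 1 was the lowest and nearest to TAB 2. The mean was 181 ± 6.97 FPKM (SD, n = 3) in TAB and 208 ± 8.58 FPKM (SD, n = 4) in Sham, so Mylk3 fell by 0.20 ± 0.05 SE on the log2 scale (limma adjusted p = 0.0136). The direction held in all alternative fits, but the call was lost without TAB 1 (adjusted p = 0.0598), without TAB 3 (0.0550) and without both Sham 2 and TAB 3 (0.105).

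Mylk, the kinase of smooth muscle (plus strand, chr16:34784950-35002434), was the least abundant member. It had 5.13, 5.44 and 4.70 FPKM in TAB 1 to 3 and 5.05, 4.85, 5.18 and 4.81 FPKM in Sham 1 to 4. The groups overlapped, with a log2 fold change of 0.03 ± 0.07 SE (limma adjusted p = 0.818) and an interval from -0.12 to 0.18. Its sign turned under both rescalings, to -0.02 and -0.04. The gene also gives rise to a short transcript for telokin, which lacks the kinase activity, and the table does not separate the products. The ratio of Mylk3 to Mylk was 34.8 to 37.4 in TAB and 38.6 to 43.9 in Sham.

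Among the other listed kinases, Mylk4 was also lower in TAB. Mylk4, a further light chain kinase gene of striated muscle, had 42.9, 46.4 and 39.2 FPKM in TAB 1 to 3. In Sham 1 to 4 it had 62.3, 64.6, 64.1 and 64.4 FPKM. All TAB libraries were below the narrow Sham range, and the gene fell by 0.57 ± 0.06 SE on the log2 scale (limma adjusted p = 0.000173), in each alternative fit between 0.50 and 0.63. Mylk4 was called lower with a larger difference than Mylk3, so that the ratio of Mylk3 to Mylk4 was 4.17, 4.08 and 4.49 in TAB and 3.13, 3.29, 3.33 and 3.26 in Sham. Summed FPKM of both kinases was 215 to 236 in TAB and 257 to 277 in Sham. Mylip, which encodes a ubiquitin ligase that binds the regulatory light chain, had 8.70 to 9.28 FPKM in TAB and 10.1 to 13.4 FPKM in Sham (-0.27 ± 0.09 SE, limma adjusted p = 0.0573). The skeletal muscle kinase Mylk2 and the light chain genes Mylpf and Myl10 did not pass the filter, with at most 2.96 FPKM. Of the 7 listed genes found in the table, 4 were tested, with 1 higher (Myl12b), 1 lower (Mylk4) and 2 not called.

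**Figure D4:**
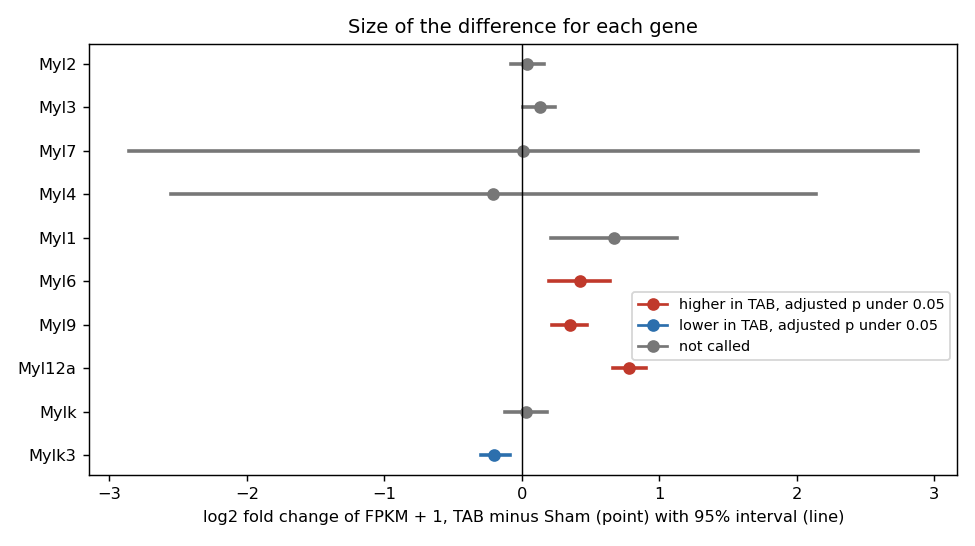
Log2 fold change of FPKM + 1, TAB minus Sham (points), with the 95% interval before adjustment (lines) for each gene; red and blue mark genes called higher and lower in TAB and grey marks genes not called. Myl12a, Myl6 and Myl9 lie to the right of 0 and Mylk3 to the left, while the intervals of Myl7 and Myl4 exceed 2 log2 units on either side.

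The phosphatase that removes the phosphate showed no common shift. Of 10 genes for its subunits and inhibitors 1 was higher, 1 lower and 8 not called. Their median log2 difference was 0.03. Ppp1r12a, the targeting subunit of smooth muscle, had 14.1 to 16.7 FPKM in TAB and 13.1 to 14.7 FPKM in Sham (0.15 ± 0.07 SE, limma adjusted p = 0.143). Ppp1r12b, the targeting subunit of heart, had 39.2 to 46.6 FPKM in TAB and 45.6 to 48.7 FPKM in Sham (-0.10 ± 0.06 SE, limma adjusted p = 0.285). The catalytic subunit gene Ppp1cb had 115 to 122 FPKM in TAB and 123 to 131 FPKM in Sham (-0.11 ± 0.04 SE, limma adjusted p = 0.0962). It passed the threshold under median-of-ratios rescaling (adjusted p = 0.0178) and quantile normalization (0.0375). The inhibitor gene Ppp1r14b rose by 0.23 ± 0.06 SE (limma adjusted p = 0.0151), a call lost without TAB 1 (adjusted p = 0.0729). The smooth muscle inhibitor gene Ppp1r14a fell by 0.37 ± 0.11 SE (limma adjusted p = 0.0424), with 4.496 to 4.99 FPKM in TAB and 5.54 to 8.53 FPKM in Sham, and lost its call in 10 of the 17 alternative fits (adjusted p up to 0.129).

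Upstream of their starts 4 of the 10 members carried a CArG box, the site bound by serum response factor, which drives contractile genes in cardiac and smooth muscle. The box was searched by its consensus of 10 bases, which reads alike on both strands, in the 250 bases before each RefSeq start on GRCm38.p6. Of 27025 genes with such a window, 1.62% had at least 1 box. The members with one were Myl3, Myl7, Myl9 and, at its second RefSeq start, Myl6. That start of Myl6 lies 816 bases from the start in the expression table, inside the gene's interval. The window of its other RefSeq start, 61 bases from the start in the expression table, had no box. The windows of Myl3, Myl7 and Myl9 are shown because their starts lie within 3 bases of the start in the expression table, and capitals mark the box. Its first base lies 85 bases before the start in Myl3, 61 in Myl7 and 161 in Myl9.
Myl3 (plus strand, chr9:110763428-110763677): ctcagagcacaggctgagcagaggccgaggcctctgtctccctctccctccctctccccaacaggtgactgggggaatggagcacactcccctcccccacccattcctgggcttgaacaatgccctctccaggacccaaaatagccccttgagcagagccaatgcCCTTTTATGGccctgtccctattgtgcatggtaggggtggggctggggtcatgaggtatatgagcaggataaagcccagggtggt
Myl7 (minus strand, chr11:5898783-5899032): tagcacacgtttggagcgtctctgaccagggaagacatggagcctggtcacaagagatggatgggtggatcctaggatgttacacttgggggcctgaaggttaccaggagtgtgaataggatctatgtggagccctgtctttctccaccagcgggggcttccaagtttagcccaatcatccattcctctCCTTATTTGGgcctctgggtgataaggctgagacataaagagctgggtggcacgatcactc
Myl9 (plus strand, chr2:156775214-156775463): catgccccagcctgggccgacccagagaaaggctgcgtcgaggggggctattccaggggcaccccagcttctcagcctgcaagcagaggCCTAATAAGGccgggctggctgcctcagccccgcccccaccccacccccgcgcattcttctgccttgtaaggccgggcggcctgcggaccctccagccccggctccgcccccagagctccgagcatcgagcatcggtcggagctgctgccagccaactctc
Of the 4 members with a box, Myl9 and Myl6 (at its second start only) were higher in TAB and Myl3 and Myl7 were not called. Myl12a, with the largest change among the called members, had no box in its window. RefSeq starts of Myl2 lay 7791 and 8256 bases from the start in the expression table, so its windows do not cover the promoter that this table implies.

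Some members overlap other annotated genes on the opposite strand: Mylk overlaps 3, Mylk3 overlaps 1 and Myl4 overlaps 4 in GENCODE M21, and Myl12a overlaps a long non-coding RNA gene. The libraries were stranded, and whether strand was used in making the FPKM values is not given in the sources used here.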

How the data were processed

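RNA of ventricular lysate from 3 TAB and 4 Sham libraries was polyA-enriched and made into stranded libraries, per the labels' protocols. The FPKM values were taken from a single table deposited by the authors. The submitters' processing notes name TopHat, Cufflinks and mm10, with versions, annotation and scaling not given in the sources used here. Sample descriptions quote the column names, and titles give group and replicate number. FPKM sums were 510016 to 535455 per library. Depth was estimated from genes with 1 transcript of 3000 to 6000 bases (GENCODE M21) as the number of fragments at which most low values lay within 5% of 1 to 4 whole fragments (63.7% to 71.4% of 67 to 80 values did). Start positions were raised by 1, since 12096 of 21244 genes began 1 base below RefSeq's start and 713 at it.

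Rows with at least 1 FPKM in at least 3 libraries were tested on log2(FPKM + 1) with limma 3.58.1 in R 4.3.3 (trend and robust), with no covariate and a threshold of 0.05. The test was checked on simulated data. The rule for members used symbols and no measured value, but members and lists were chosen with earlier results of these data known. Named genes are the members, called list genes (at most 4 per list) and 8 fixed genes; other genes (small counts, defining markers, close paralogs) were named with their values seen. Some list genes and the genes most like Mylk are not reported here. Likeness is the root mean square difference of centred log2 profiles. Sequences are RefSeq's (GRCm38.p6) and GENCODE's (GRCm38), and coding sequences were aligned globally with Biopython 1.88.
Alternatives were pseudocounts of 0.1 and 0.5, no filter, a mean of at least 5 FPKM, 2 rescalings, eBayes without trend and robust, the replicate number as a block, log2 Sln as a covariate, and libraries left out.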

Additional observations from a re-analysis of the deposited data

Results flagged for a closer look

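In 2 of the 10 genes 1 Sham library stood apart from the other three, by a gap above Dixon's 95% critical value for 4 samples, which chance exceeds in about 1 group in 20. Myl9 was 28.5 FPKM in Sham 1 and 32.3 to 32.9 FPKM in the others. Mylk3 was 195 FPKM in Sham 1 and 210 to 213 FPKM in the others. The TAB group has 3 libraries and was not examined in this way.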

How the results depend on the processing

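Over 17 alternative fits, Myl12a and Myl9 kept their calls in all, Myl6 lost its call in 1 and Mylk3 in 3, as given with each gene. The count of members called lower was 0 to 1 with single libraries left out and 0 without both Sham 2 and TAB 3. Among all rows, single omissions gave 875 (without TAB 1) to 1361 higher and 545 (without TAB 3) to 717 lower calls, omitting both gave 959 and 395, and median-of-ratios rescaling gave 1038 higher and 1250 lower. Quantile normalization gave 1045 and 1225. Of the genes that were not called, Myl2, Myl7, Myl4, Mylk and Sln changed sign in some fits. Median-of-ratios rescaling put Myl2 at -0.020, Myl7 at -0.048, Mylk at -0.022 and Sln at -0.012, and quantile normalization put Myl7 at -0.031, Mylk at -0.043 and Sln at -0.019. With single libraries left out Myl2 ranged from -0.030 to 0.084, Myl7 from -0.88 to 0.81, Myl4 from -0.97 to 0.34, Mylk from -0.014 to 0.074 and Sln from -0.91 to 0.87. Without both Sham 2 and TAB 3, Myl7 was at -0.34 and Sln at -0.33, and with Sln as a covariate Myl7 was at -0.028. The cause was not tested.

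Same-numbered libraries of the groups were not shown to be paired: the correlations of their deviations were 0.0807, 0.169 and 0.174. Those of libraries with different numbers ran from -0.245 to 0.104. The values 0.169 and 0.174 lay above that range, so pairing was left undecided. With the replicate block, in which Sham 4 has no partner, 1238 rows were higher and 654 lower, Myl3 passed the threshold (adjusted p = 0.0234), Nppa and Myh7 did not (0.24 and 0.0635), and Myl7 and Sln were at -0.44 and -0.46. FPKM values carry no counts, so counting error was not modelled.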
